A study of Mus musculus with 12 samples.

Results

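The cytokines of the interleukin-6 family, their receptor chains, the transcription factor STAT3 and its feedback inhibitor SOCS3 were followed at the RNA level in skin of a mouse model of rosacea. The 10 genes were chosen by name, as the rows whose Ensembl identifiers carry the symbols Il6, Il11, Lif, Osm, Osmr, Il6ra, Il6st, Lifr, Stat3 and Socs3, of 52636 genes in the table. All 10 were found and all 10 passed the filter on low counts. RNA sequencing of whole skin from BALB/c mice gave 12 libraries in 4 groups of 3, namely control, control + RAPA, LL37 and LL37 + RAPA. LL37 is a peptide cut from the antimicrobial protein cathelicidin, and RAPA is rapamycin, an inhibitor of the kinase complex mTORC1. Per the study's methods, mice of the model were 8 weeks old and had shaved back skin, and 40 μl of LL37 peptide or control vehicle was injected into the dermis 2 times a day for 2 days. The same methods give rapamycin to BALB/c mice by intraperitoneal injection at 4 mg/kg per day, and the sample labels name no route. Injection and shaving were thus common to all 4 groups, and a skin piece without injection was not analysed here. The study calls the 3 samples of a group independent biological samples, without saying whether each is 1 animal.

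Interleukin-6, interleukin-11, leukemia inhibitory factor (Lif) and oncostatin M (Osm) are secreted cytokines that share the signaling chain gp130, encoded by Il6st. Each cytokine brings gp130 together with a chain of its own, which is Il6ra for interleukin-6, Lifr for Lif and Osmr for oncostatin M in the mouse. The paired chains activate JAK kinases, which phosphorylate STAT3, and phosphorylated STAT3 enters the nucleus and switches on Socs3, whose product blocks gp130. In skin this family is known for its part in wound repair, in the acute phase response and in keratinocyte activation. RNA counts do not measure phosphorylation, so the values below are transcript levels alone.

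Values are CPM (the counts of a gene scaled to a common library total) after scaling the libraries by TMM, with means ± SD over 3 libraries, unless a fold change is named. Depth ran from 15734559 to 23271784 counts per library, at which 3 counts, taken as the limit of detection, equal 0.123 to 0.184 CPM. This limit covers counting error only. Fold changes, their standard errors (SE) and adjusted p-values come from edgeR's quasi-likelihood test on all 12 libraries and 17993 genes, with Benjamini-Hochberg adjustment. A DEG had an adjusted p under 0.05 together with a log2 fold change beyond 1 in either direction, and "rose" or "fell" is written for an adjusted p under 0.05.

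The libraries did not vary equally. On the first principal component, with 68.3% of the variance, LL37 replicates 1 and 2 lay at 133 and 129 and LL37 replicate 3 at 64.4, while LL37 + RAPA lay between 0.527 and 29.8 and the 6 other libraries between -70.6 and -50.2. LL37 replicate 3 was the LL37 library nearest to the control mean for 10 of the 10 genes, the lowest of its group for 8 and the highest for 2. For each member the value in every library is given, and calls that changed without LL37 replicate 3 are stated beside the result. The keratinocyte marker list summed to 21176 to 38367 CPM over all libraries, so the label of skin was met. The summed neutrophil list (9 genes) was 5.74 to 26.7 CPM in control, 7.11 to 12.3 in control + RAPA, 123 to 909 in LL37 with replicate 3 lowest, and 58.6 to 248 in LL37 + RAPA. Of its genes, Ly6g had 0 to 1 counts in each control library. The skeletal muscle list (12 genes) summed to 34085 to 65508 CPM in the 6 libraries without LL37, to 23.1, 27.0 and 768 CPM in LL37 replicates 1, 2 and 3, and to 2951 to 6315 CPM in LL37 + RAPA. Fewer cells of a type and less RNA per cell cannot be told apart in such libraries.

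The 4 cytokine genes were DEGs in LL37 vs control, and all 4 were higher in LL37. Across all tested genes 8.73% were DEGs in that direction. The same 4 were DEGs in LL37 vs LL37 + RAPA, higher in LL37, where 4.33% of tested genes were. Il6 had the largest fold of the 4 in both comparisons and Il11 the smallest.

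**Figure D1:**
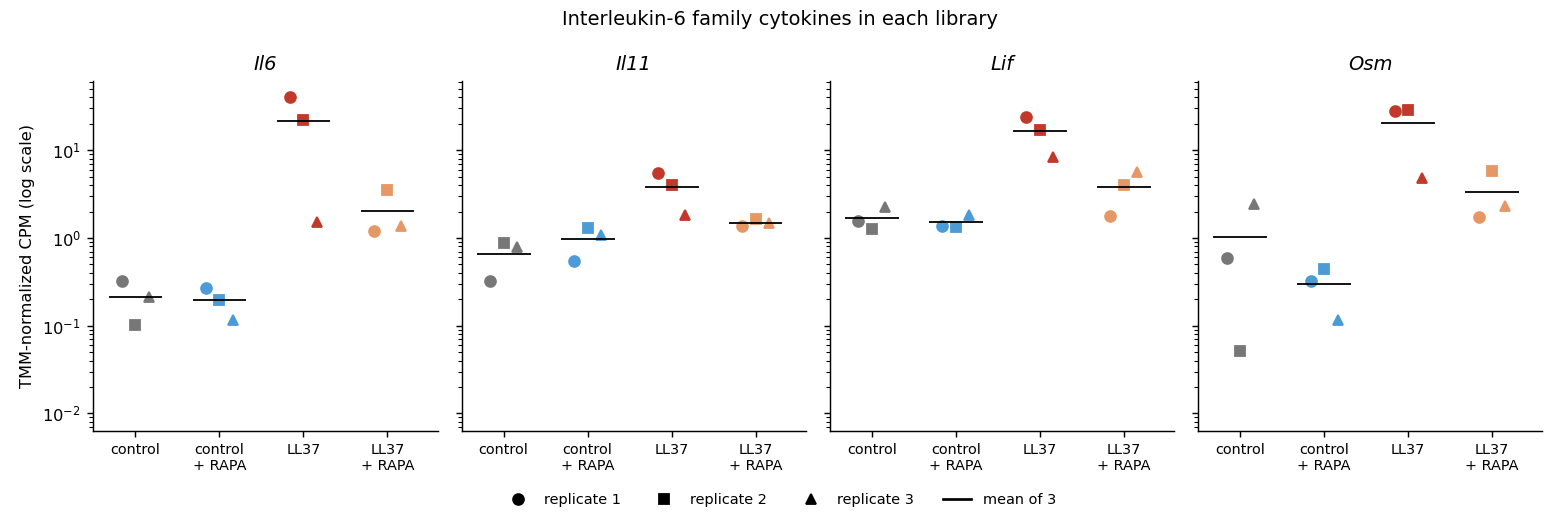
The 4 interleukin-6 family cytokine genes in each of the 12 libraries, as TMM-normalized CPM on a log scale, with groups along the x axis, a symbol for each replicate and a bar at the mean of 3. LL37 replicates 1 and 2 lie above all LL37 + RAPA libraries for each gene, and LL37 replicate 3 (triangle) lies inside the LL37 + RAPA range for Il6 and Osm.

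Il6 (ENSMUSG00000025746, chr5:30013114-30019981, plus strand, GRCm38) encodes interleukin-6, the cytokine that names the family and drives the acute phase response. Its level was 0.324, 0.103 and 0.211 CPM in control replicates 1, 2 and 3, which is 6, 2 and 4 counts. In control + RAPA it was 0.271, 0.198 and 0.115 CPM, in LL37 40.5, 22.1 and 1.51 CPM, and in LL37 + RAPA 1.19, 3.56 and 1.35 CPM. All LL37 and LL37 + RAPA libraries were above all libraries without LL37, but LL37 replicate 3 lay within the LL37 + RAPA range. Il6 rose 98.4-fold in LL37 vs control (log2 6.62, SE 1.11, adjusted p = 0.000698), a fold that rests on 12 counts in the 3 control libraries together. It was 10.4-fold higher in LL37 than in LL37 + RAPA (log2 3.38, SE 0.84, adjusted p = 0.0151). Without LL37 replicate 3 these log2 changes were 7.20 and 3.93, and without LL37 replicate 1 they were 5.76 and 2.52. Without LL37 + RAPA replicate 2 the second was 4.06. The second call was lost without LL37 replicate 1, LL37 + RAPA replicate 1 or LL37 + RAPA replicate 3, with adjusted p up to 0.0696 among the 6 fits that left out a library, and it held in 9 of 13 alternatives in all.

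Osm (ENSMUSG00000058755, chr11:4236420-4241026, plus strand) encodes oncostatin M, which myeloid cells release and keratinocytes answer. It measured 0.593, 0.0513 and 2.42 CPM in control, 0.325, 0.444 and 0.115 CPM in control + RAPA, 27.9, 29.0 and 4.80 CPM in LL37 and 1.76, 5.85 and 2.30 CPM in LL37 + RAPA. Control replicate 3, with 46 counts of Osm, also had the highest neutrophil sum among the controls, 26.7 CPM, against 13.4 and 5.74 CPM in replicates 1 and 2. Osm rose 20.0-fold in LL37 vs control (log2 4.32, SE 0.90, adjusted p = 0.00258). The call held in all 6 fits that left out a library, but the log2 change was 5.97 without control replicate 3 and 3.74 without control replicate 2. Against LL37 + RAPA it was 6.16-fold higher in LL37 (log2 2.62, SE 0.79, adjusted p = 0.0333), although the libraries of the groups overlapped. These log2 changes were 4.82 and 3.09 without LL37 replicate 3, and without LL37 + RAPA replicate 2 the second was 3.33. The call against LL37 + RAPA was kept in 2 of the 6 fits that left out a library, which were those without LL37 replicate 3 and without LL37 + RAPA replicate 2, and in 6 of 13 alternatives in all, with adjusted p from 0.00357 to 0.119.

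Lif (ENSMUSG00000034394, chr11:4257557-4272514, plus strand) encodes leukemia inhibitory factor and is the next protein-coding gene to Osm, 16531 bases away. It stood at 1.56, 1.28 and 2.27 CPM in control and at 1.36, 1.33 and 1.84 CPM in control + RAPA. In LL37 it was at 24.1, 17.0 and 8.29 CPM, and in LL37 + RAPA at 1.80, 4.05 and 5.73 CPM. Every LL37 library was above every other library for Lif, LL37 replicate 3 included. The gene rose 9.61-fold in LL37 vs control (log2 3.26, SE 0.46, adjusted p = 0.000241) and was 4.24-fold higher in LL37 than in LL37 + RAPA (log2 2.08, SE 0.43, adjusted p = 0.00658). Both calls held in all 14 alternative fits of each comparison, with log2 changes of 2.88 to 3.62 and of 1.70 to 2.47.

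Il11 (ENSMUSG00000004371, chr7:4772373-4782859, minus strand) encodes interleukin-11, known for acting on fibroblasts. It was at 0.324, 0.872 and 0.790 CPM in control, 0.542, 1.28 and 1.09 CPM in control + RAPA, 5.44, 4.04 and 1.84 CPM in LL37 and 1.38, 1.64 and 1.49 CPM in LL37 + RAPA. The 3 LL37 libraries were the highest of the 12. Il11 rose 5.62-fold in LL37 vs control (log2 2.49, SE 0.46, adjusted p = 0.00133). The 2.50-fold difference from LL37 + RAPA (log2 1.32, SE 0.42, adjusted p = 0.0415) passed in 1 of the 6 fits that left out a library, the one without LL37 replicate 3, and in 6 of 13 alternatives in all, with an adjusted p of 0.187 without LL37 replicate 1 (range 0.00486 to 0.187).

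The means of all 4 cytokine genes and the medians of the myeloid marker sums were highest in LL37 and next in LL37 + RAPA. Library by library the order did not always match. In LL37 + RAPA the neutrophil sum and the macrophage and monocyte sum were both highest in replicate 2. Il6, Osm and Il11 were also highest in that library, and Lif was highest in replicate 3. The 9 macrophage and monocyte genes summed to 337 to 576 CPM in control, 393 to 423 in control + RAPA, 1070 to 1919 in LL37 and 719 to 1257 in LL37 + RAPA. Of the 8 neutrophil genes tested, 8 rose in LL37 vs control (21.0% of tested genes rose) and 4 were higher in LL37 than in LL37 + RAPA (11.8%). Without LL37 replicate 3, 9 neutrophil genes could be tested, of which 9 rose and 8 were higher (24.7% and 17.4% of the genes tested in that fit). The part of these cells in the cytokine values was not tested.

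Sequence before a RefSeq transcription start is shown for the 4 members whose window held a searched motif, because these genes include 3 of the 4 cytokines and the STAT3 feedback gene. The windows are the 250 bases before the RefSeq start on GRCm38.p6, ended where an annotated exon begins, and capitals mark the motifs. RefSeq windows were found for 9 of the 10 members, and Osm had no entry. Il11 and Lifr had 2 starts each, which made 11 windows, and for Il11 the window of the second is shown. The stretches shown for Il11 and Socs3 lie within the annotated span of their own genes, not upstream of it. The letters searched on both strands were TGANTCA (the AP-1 form), TTCNNNGAA (a loose STAT form), TTCCNGGAA (a tight STAT form, each match of which also matches the loose form) and the NF-kB consensus.
Il6, chr5:30012864-30013113, plus strand: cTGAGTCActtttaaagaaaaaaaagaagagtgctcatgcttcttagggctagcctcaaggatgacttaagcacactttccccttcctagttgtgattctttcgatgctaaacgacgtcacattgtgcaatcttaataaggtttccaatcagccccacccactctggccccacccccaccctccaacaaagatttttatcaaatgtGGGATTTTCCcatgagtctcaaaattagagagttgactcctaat
Il11, chr7:4778142-4778391, minus strand: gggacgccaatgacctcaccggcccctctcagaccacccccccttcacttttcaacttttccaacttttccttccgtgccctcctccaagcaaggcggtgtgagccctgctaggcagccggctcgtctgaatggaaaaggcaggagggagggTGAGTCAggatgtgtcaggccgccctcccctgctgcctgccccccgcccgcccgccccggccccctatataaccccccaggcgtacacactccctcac
Lif, chr11:4257318-4257556, plus strand: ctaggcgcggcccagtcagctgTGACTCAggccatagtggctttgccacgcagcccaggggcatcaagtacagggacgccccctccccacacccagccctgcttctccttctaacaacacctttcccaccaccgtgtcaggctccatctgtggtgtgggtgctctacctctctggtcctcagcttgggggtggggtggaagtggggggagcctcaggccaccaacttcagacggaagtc
Socs3, chr11:117969452-117969616, minus strand: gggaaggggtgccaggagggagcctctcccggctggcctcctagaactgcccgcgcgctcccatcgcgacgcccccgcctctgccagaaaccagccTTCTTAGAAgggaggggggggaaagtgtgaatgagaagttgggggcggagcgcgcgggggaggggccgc
The AP-1 letters stood in 3 of the 11 member windows, those shown for Il6, Il11 and Lif, and in 6.75% of the 32851 windows of all genes. The NF-kB match was in Il6 (3.90% of all windows), the loose STAT match in Socs3 (7.02%), and the tight STAT form (0.913%) in none of the 11 member windows. The Socs3 window lies inside the gene, so the bases before the annotated start of Socs3 were not searched for any motif. A match of letters is a description of the sequence and not a binding site.

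Among the receptor genes the changes were smaller and did not all go one way. Osmr rose and Lifr fell in LL37 vs control, and the values of Il6ra and Il6st did not pass the test. No receptor chain passed in LL37 vs LL37 + RAPA. Osmr was the only DEG of the 4.

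**Figure D2:**
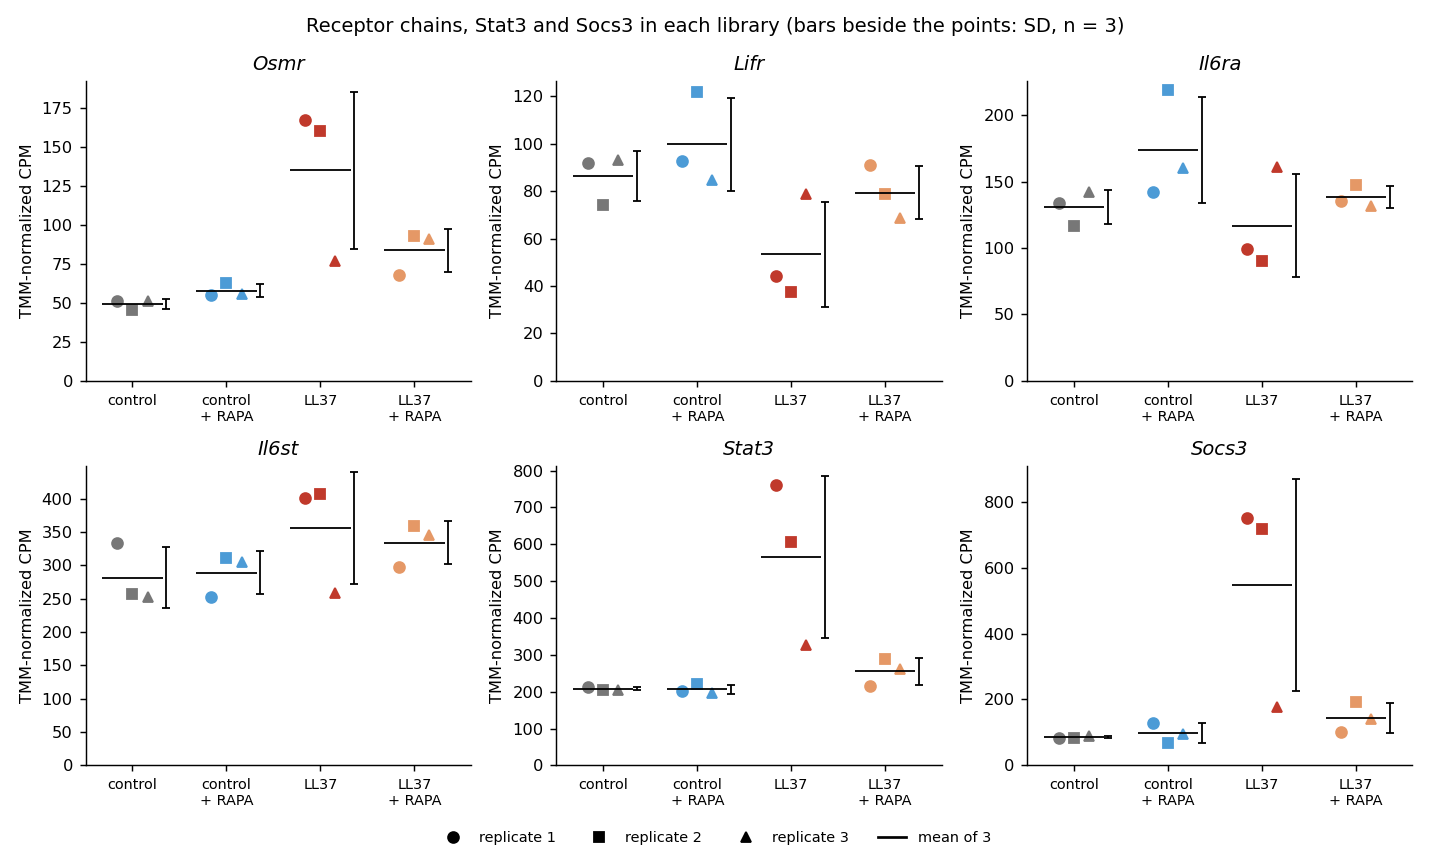
Receptor chain genes, Stat3 and Socs3 in each of the 12 libraries, as TMM-normalized CPM on linear axes from 0, with groups along the x axis, a symbol for each replicate, a bar at the mean and a bracket of 1 SD either side (n = 3). LL37 replicates 1 and 2 are apart from all other libraries for each gene, below them for Lifr and Il6ra and above them for the others. LL37 replicate 3 is nearer to the rest.

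Osmr (ENSMUSG00000022146, chr15:6813577-6874969, minus strand) encodes the chain that binds oncostatin M. Its values were 51.4, 45.7 and 51.4 CPM in control, 55.2, 62.7 and 55.8 CPM in control + RAPA, 168, 161 and 77.1 CPM in LL37 and 67.7, 92.8 and 91.1 CPM in LL37 + RAPA. All 6 libraries with LL37 were above all 6 without it. Osmr rose 2.73-fold in LL37 vs control (log2 1.45, SE 0.24, adjusted p = 0.000647). The 1.61-fold difference between LL37 and LL37 + RAPA (log2 0.69, SE 0.24) had an adjusted p of 0.0527, and LL37 replicate 3 was inside the LL37 + RAPA range. Without LL37 replicate 3 the difference was 0.97 on the log2 scale and passed, with adjusted p from 0.000218 to 0.208 over 14 alternatives.

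Lifr (ENSMUSG00000054263, chr15:7090614-7197489, plus strand), the chain that binds Lif, is the next protein-coding gene to Osmr, 215645 bases away. It was at 91.9, 74.3 and 93.0 CPM in control, 92.9, 122 and 84.6 CPM in control + RAPA, 44.0, 37.6 and 78.6 CPM in LL37 and 90.9, 78.7 and 68.6 CPM in LL37 + RAPA. LL37 replicates 1 and 2 were the lowest of the 12 libraries, and replicate 3 lay within the control range. Lifr fell by 0.69 on the log2 scale in LL37 vs control (SE 0.24, adjusted p = 0.0387), as 21.6% of tested genes did. This call was the least stable of the 8 and was lost in 7 of 14 alternatives, among them the fits without control replicate 1 or 3 and without LL37 replicate 1 or 2 (adjusted p up to 0.157), while without LL37 replicate 3 the log2 change was -1.05. The adipocyte list (8 genes) moved the same way, with sums of 1139 to 2197 CPM in control, 1475 to 3223 in control + RAPA, 281 to 611 in LL37 and 1888 to 2008 in LL37 + RAPA, and the muscle list was lowest in the same 2 libraries as Lifr. Their part in the Lifr values was not tested.

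Il6ra (ENSMUSG00000027947, chr3:89864059-89913196, minus strand) encodes the chain that gives interleukin-6 its specificity. It was at 134, 117 and 142 CPM in control, 142, 219 and 160 CPM in control + RAPA, 99.1, 90.4 and 161 CPM in LL37 and 135, 148 and 132 CPM in LL37 + RAPA. The LL37 libraries overlapped those of control, and the log2 change in LL37 vs control was -0.16 (SE 0.21, 95% interval -0.62 to 0.29, adjusted p = 0.563). The first 281 bases of Il6ra are shared with Gm42809 on the other strand, which had 1 to 21 counts per library.

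Il6st (ENSMUSG00000021756, chr13:112464070-112510086, plus strand), which encodes the shared chain gp130, was at 334, 257 and 253 CPM in control, 252, 310 and 305 CPM in control + RAPA, 401, 408 and 259 CPM in LL37 and 298, 359 and 345 CPM in LL37 + RAPA. The interval of its log2 change was -0.05 to 0.72 in LL37 vs control (estimate 0.34, adjusted p = 0.146) and -0.30 to 0.48 in LL37 vs LL37 + RAPA (estimate 0.09, adjusted p = 0.740). Without LL37 replicate 3, Il6ra fell by 0.44 and Il6st rose by 0.55 on the log2 scale in LL37 vs control. In that fit 10 of the 10 members passed the adjusted p, as did 47.8% of the 18396 genes tested there, against 8 members and 42.6% of genes with the library. Against LL37 + RAPA it passed 9 members (34.8% of genes), with Osmr, Il6ra and Lifr in addition. Adjusted p over 14 alternatives ran from 0.0397 to 0.932 for Il6ra and from 0.00686 to 0.375 for Il6st.

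The ratio of Osmr to Lifr counts compares both receptor chains inside a library and is free of scaling between libraries. It was 0.553 to 0.616 in control and 0.514 to 0.660 in control + RAPA, so Lifr had more counts than Osmr in each of these libraries. In LL37 it was 3.81, 4.27 and 0.980, and in LL37 + RAPA 0.745, 1.18 and 1.33. All 6 libraries with LL37 lay above all 6 without it, and the mean log2 ratio moved from -0.80 ± 0.08 in control to 1.33 ± 1.18 in LL37 and 0.07 ± 0.44 in LL37 + RAPA (SD, n = 3).

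**Figure D3:**
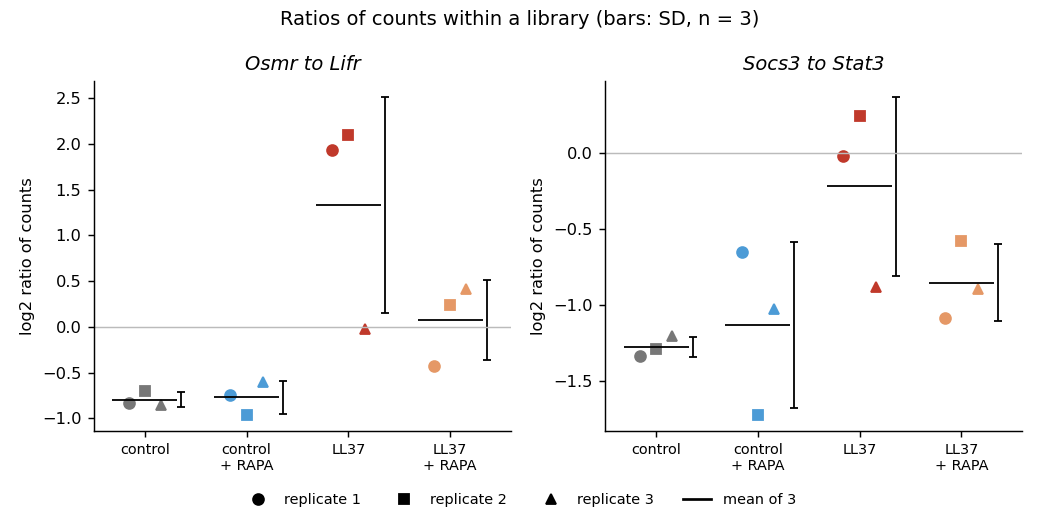
Log2 ratios of counts within a library for Osmr to Lifr (left) and Socs3 to Stat3 (right), with groups along the x axis, a symbol for each replicate, a bar at the mean and a bracket of 1 SD either side (n = 3); the grey line is a ratio of 1. The Osmr to Lifr ratio is below the line in all 6 libraries without LL37 and above it in LL37 replicates 1 and 2.

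Stat3 and Socs3 were DEGs against control and against LL37 + RAPA, higher in LL37 each time. With the cytokines and Osmr this made 7 of 10 members DEGs in LL37 vs control (19.5% of tested genes in either direction) and, without Osmr, 6 of 10 in LL37 vs LL37 + RAPA (10.1%). The median log2 change of the members was 1.97 and 1.23 in these comparisons, against 0.00 over all tested genes in each. The LL37 libraries lay wholly apart from those of control for 7 members (49.7% of tested genes) and from those of LL37 + RAPA for 3, Il11, Lif and Stat3 (38.3%). An adjusted p under 0.05 was reached by 8 members (42.6% of tested genes) and by 6 (24.2%).

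Stat3 (ENSMUSG00000004040, chr11:100885098-100939540, minus strand) encodes the transcription factor that all of these cytokines activate. It was at 212, 206 and 205 CPM in control and 202, 221 and 196 CPM in control + RAPA, with an SD of 1.88% of the mean in control. In LL37 it was at 760, 606 and 327 CPM, and in LL37 + RAPA at 217, 287 and 261 CPM. The LL37 libraries were the 3 highest of the 12. Stat3 rose 2.72-fold in LL37 vs control (log2 1.44, SE 0.24, adjusted p = 0.000589) and was 2.21-fold higher in LL37 than in LL37 + RAPA (log2 1.15, SE 0.23, adjusted p = 0.00646). An adjusted p under 0.05 was kept in 14 of 14 alternatives of each comparison, but without LL37 replicate 1 the log2 difference from LL37 + RAPA was 0.87, under the limit of 1 for a DEG. Its last 72 bases overlap Stat5a on the other strand, which had 586 to 1860 counts per library.

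Socs3 (ENSMUSG00000053113, chr11:117966079-117970047, minus strand) encodes the inhibitor that STAT3 induces and that binds gp130. It was at 84.1, 84.3 and 88.9 CPM in control, 129, 67.1 and 96.4 CPM in control + RAPA, 749, 718 and 177 CPM in LL37 and 102, 192 and 140 CPM in LL37 + RAPA. LL37 replicates 1 and 2 were far above the rest, and replicate 3 lay within the LL37 + RAPA range. Socs3 rose 6.39-fold in LL37 vs control (log2 2.68, SE 0.46, adjusted p = 0.000774). It was 3.78-fold higher in LL37 than in LL37 + RAPA (log2 1.92, SE 0.44, adjusted p = 0.0109), a call kept in 12 of 14 alternatives and missed without LL37 + RAPA replicate 1 (adjusted p = 0.0517, of a range from 8.25e-05 to 0.0523). These log2 changes were 3.12 and 2.34 without LL37 replicate 3. The ratio of Socs3 to Stat3 counts was 0.396 to 0.434 in control, 0.303 to 0.638 in control + RAPA, 0.986, 1.18 and 0.543 in LL37, and 0.472 to 0.668 in LL37 + RAPA.

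**Figure D4:**
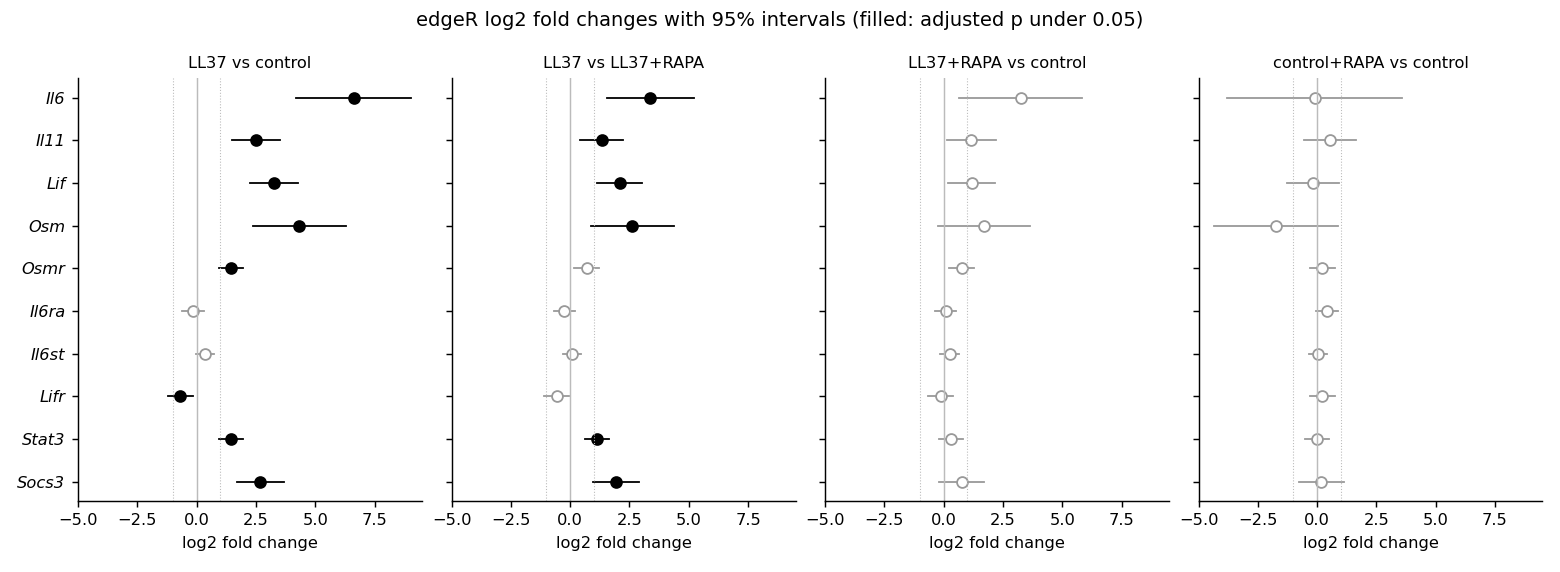
Log2 fold changes (x axis) of the 10 members in 4 comparisons, with 95% intervals from edgeR; filled black points had an adjusted p under 0.05, and dotted lines mark log2 changes of -1 and 1. There are 8 genes that pass in the first panel and 6 in the second, and the other comparisons have open points alone.

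The comparison of LL37 + RAPA with control asked what remained of the response under rapamycin. None of the 10 members passed in edgeR's quasi-likelihood test, where 14.0% of tested genes did and 6.49% were DEGs. At an unadjusted p under 0.05 there were 4 (Il6, Il11, Lif and Osmr), beside 27.4% of tested genes, and DESeq2 gave 2 past the adjusted p, Il6 and Osmr. The 3 libraries of LL37 + RAPA were above all control libraries for 5 members, Il6, Il11, Osmr, Stat3 and Socs3 (36.4% of tested genes did not overlap). Estimates ranged from 3.24 for Il6 (SE 1.18, adjusted p = 0.0942) and 0.76 for Osmr (SE 0.24, adjusted p = 0.0541) to -0.12 for Lifr (SE 0.24, adjusted p = 0.807). These values share their LL37 + RAPA libraries with LL37 vs LL37 + RAPA and their control libraries with LL37 vs control.

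Against control + RAPA, which received rapamycin as well, LL37 + RAPA was higher for Osm alone (log2 3.44, SE 1.07, adjusted p = 0.0439), where 8.39% of tested genes were DEGs and 4.07% were DEGs higher in LL37 + RAPA. This call rests on few counts in control + RAPA, 6, 9 and 2, and in 5 of the 6 fits that left out a library it did not pass. It held without LL37 + RAPA replicate 1, and leaving out any of control + RAPA replicates 1 to 3 or LL37 + RAPA replicates 2 and 3 gave adjusted p up to 0.168. Il6 (log2 3.35, SE 1.20, adjusted p = 0.0758) and Lif (log2 1.36, SE 0.47, adjusted p = 0.0651) were next.

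Rapamycin without LL37 gave no call. In control + RAPA vs control none of the 17993 genes tested in edgeR, members included, passed the adjusted p or was a DEG (0.00% of tested genes). Past the adjusted p were 10 genes with no filter beyond 1 count, 7 without control replicate 2 and 93 in DESeq2, with no member in any of these fits, and 1556 genes (8.65%) but no member had an unadjusted p under 0.05. The 95% interval of the log2 change was -0.51 to 0.50 for Stat3 and -0.76 to 1.13 for Socs3, whereas for Il6, with 2 to 6 counts in these libraries, it was -3.80 to 3.59 and a change of several fold in either direction was not detectable.

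Whether rapamycin acted differently with LL37 than without it was tested as an interaction. No member passed in edgeR's test (3.28% of tested genes passed and 2.38% were DEGs), 5 had an unadjusted p under 0.05 (Il11, Lif, Osmr, Stat3 and Socs3, beside 22.5% of tested genes) and DESeq2 called 3, Lif, Stat3 and Socs3. The smallest adjusted p-values were those of Stat3 (log2 -1.14, SE 0.33, adjusted p = 0.0765) and Socs3 (log2 -2.10, SE 0.61, adjusted p = 0.0789). This result depended on LL37 replicate 3. Without that library 7 members passed the adjusted p (17.1% of tested genes) and 6 were DEGs, namely Il6, Il11, Lif, Osmr, Stat3 and Socs3, of 1760 DEGs over all genes against 429 with it, and the log2 interaction was -1.41 for Stat3 and -2.52 for Socs3. Over 19 alternatives the adjusted p ran from 0.000425 to 0.181 for Stat3 and from 0.000853 to 0.185 for Socs3.

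Levels can be ordered between genes only per kilobase of annotated exons (CPM per kb, GENCODE M21). In control, Socs3 (29.7 ± 0.951) and Il6st (25.3 ± 4.11) led, with libraries that overlapped each other, followed by Stat3 (21.8 ± 0.409), Il6ra (15.2 ± 1.49), Lifr (8.02 ± 0.974) and Osmr (4.09 ± 0.272). The cytokines stood below 1.1 CPM per kb in each control library, with Osm (0.450 ± 0.547), Lif (0.392 ± 0.116) and Il11 (0.318 ± 0.142) overlapping and Il6 (0.0874 ± 0.0455) last. In LL37 the order of means began with Socs3 (190 ± 111), Stat3 (59.2 ± 23.1) and Il6st (32.1 ± 7.54). The LL37 libraries of Socs3 and Stat3 overlapped, as did those of Stat3 and Il6st. Osm (9.05 ± 6.01) and Il6 (8.81 ± 8.04) stood between Osmr (11.2 ± 4.17) and Lifr (4.96 ± 2.05) there, and the libraries of each of these neighbours overlapped. In LL37 + RAPA the receptor means kept the order of control, but the libraries of Lifr and Osmr overlapped there and did not in control. Per kilobase, Osmr stood above Lifr in LL37 + RAPA replicates 2 and 3 and below it in replicate 1. In the same group Il6 (0.837 ± 0.546) stood above Il11 (0.721 ± 0.0631) with overlapping libraries.

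Other cytokines and receptors of the family gave a mixed picture. Of 8 further ligand genes and partner subunits, 5 could be tested. In LL37 vs control 2 of these rose and 1 fell, where 21.0% of all tested genes rose and 21.6% fell. Against LL37 + RAPA 2 were higher in LL37, where 11.8% of tested genes were. Clcf1 (log2 0.62, SE 0.12, adjusted p = 0.00169), a ligand of the Cntfr receptor, and Ebi3 (log2 1.57, SE 0.44, adjusted p = 0.0137), a subunit of interleukin-27, rose in LL37 vs control, and Ctf1, which encodes cardiotrophin-1, fell by 0.90 (SE 0.24, adjusted p = 0.00947). Ebi3 (log2 1.62, SE 0.44, adjusted p = 0.0214) and Il27 (log2 3.02, SE 0.86, adjusted p = 0.0263) were higher in LL37 than in LL37 + RAPA, but Il27 had 54, 10 and 4 counts in LL37 replicates 1, 2 and 3. Cntf and Ctf2 had too few counts to test, and Il31, the itch cytokine, had 0 counts in all 12 libraries, which allows up to 0.184 CPM.

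Of 4 further receptor genes, Cntfr, the binding chain for ciliary neurotrophic factor and Clcf1, rose in LL37 vs control (log2 1.93, SE 0.46, adjusted p = 0.00546) and was higher than in LL37 + RAPA (log2 1.56, SE 0.45, adjusted p = 0.0276). Il31ra, which pairs with Osmr to bind interleukin-31 and lies 9812 bases from Il6st, fell by 1.45 (SE 0.26, adjusted p = 0.00100) and was lower in LL37 than in LL37 + RAPA (log2 -1.71, SE 0.26, adjusted p = 0.00193). Its level was 41.5 ± 7.13 CPM in control, 15.2 ± 6.02 in LL37 and 49.7 ± 9.70 in LL37 + RAPA. Osmr and Il31ra, partners in a single receptor, thus moved in opposite directions in LL37 vs control. Of the 4 further genes 1 rose and 1 fell in that comparison, where 21.0% of tested genes rose and 21.6% fell. Against LL37 + RAPA 1 was higher and 2 were lower in LL37, where 11.8% and 12.4% of tested genes were. Il11ra1, the interleukin-11 receptor, was lower in LL37 than in LL37 + RAPA (log2 -0.37, SE 0.12, adjusted p = 0.0450), a call lost without LL37 replicate 3. Il27ra passed in LL37 + RAPA vs control + RAPA alone (log2 0.95, SE 0.26, adjusted p = 0.0231), where 8.20% of tested genes rose.

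Of 11 JAK kinases, adaptors and other STAT genes, 8 rose in LL37 vs control (21.0% of tested genes rose), 1 fell and 2 did not pass (Tyk2 and Ptpn11). Their median log2 change was 0.48. Among the 4 with the smallest p-values were Stat2 (log2 1.49, SE 0.23, adjusted p = 0.000428), which carries interferon signals, Jak2 (log2 1.37, SE 0.31, adjusted p = 0.00418) and Stat6 (log2 0.48, SE 0.10, adjusted p = 0.00206), and Stat5b fell by 0.47 (adjusted p = 0.0120, where 21.6% of tested genes fell). Higher in LL37 than in LL37 + RAPA were 4 of the 11 (11.8% of tested genes), among them Stat2 (log2 1.54, SE 0.23, adjusted p = 0.00187), Stat5a (log2 0.94) and the adaptor Grb2 (log2 0.36). In LL37 + RAPA vs control the log2 change was -0.05 for Stat2, and Stat5b (log2 -0.47, adjusted p = 0.0310) was the gene of the list that passed. With LL37 replicate 3 left out, 8 of the 11 rose and 1 fell against control, where 24.7% of tested genes rose and 23.1% fell. In that fit 6 were higher and 1 lower against LL37 + RAPA, where 17.4% of tested genes passed in each direction.

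The 13 regulators of the pathway split. In LL37 vs control 6 rose, 3 fell and 4 did not pass (21.0% of tested genes rose and 21.6% fell), with a median log2 change of 0.27. Socs1 (log2 1.97, SE 0.31, adjusted p = 0.000446), another JAK inhibitor, Ptpn6 (log2 1.17, SE 0.17, adjusted p = 0.000284), a phosphatase of blood cells, and the shedding protease Adam10 (log2 0.74, SE 0.09, adjusted p = 0.000111) rose. Adam17, which sheds the interleukin-6 receptor, rose by 0.76 (SE 0.14, adjusted p = 0.00147). The genes that fell were Socs7 (log2 -0.74, SE 0.12, adjusted p = 0.000574), Socs2 (log2 -0.78, SE 0.18, adjusted p = 0.00501) and the STAT3 inhibitor gene Pias3 (log2 -0.52, SE 0.13, adjusted p = 0.00923). Against LL37 + RAPA, where 11.8% of tested genes were higher in LL37 and 12.4% lower, Socs1 (log2 1.34), Ptpn6 (log2 0.50), Adam10 (log2 0.39) and Adam17 (log2 0.61) were higher in LL37, and Socs2 (log2 -1.12) and Pias3 (log2 -0.53) lower. In LL37 + RAPA vs control Ptpn6 (log2 0.67) and Adam10 (log2 0.36) rose, and Socs6 (log2 -0.50) and Socs7 (log2 -0.73) fell, beside 5.03% of tested genes that rose and 9.01% that fell. The counts were also 6 and 3 in the first of these comparisons without LL37 replicate 3 (24.7% of tested genes rose and 23.1% fell), and 6 higher and 2 lower in the second (17.4% each way).

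Of 30 genes known to be induced through STAT3, 24 rose in LL37 vs control, 2 fell (Pim3 and Tgm2) and 4 did not pass (Fos, Bcl6, Cebpd and Bcl2l1), with a median log2 change of 1.56. Over all tested genes 21.0% rose and 21.6% fell. The list was chosen with earlier results of these data known, so its count is not an independent readout of STAT3. The leading 4 by p were Ier3 (log2 2.44, SE 0.24, adjusted p = 2.14e-05), a survival gene, Timp1 (log2 4.21, SE 0.53, adjusted p = 0.000112), a protease inhibitor, the acute phase gene Saa3 (log2 5.56, SE 0.74, adjusted p = 0.000153) and the interleukin-4 receptor gene Il4ra (log2 2.88, SE 0.39, adjusted p = 0.000190). In LL37 vs LL37 + RAPA 11 were higher in LL37 (11.8% of tested genes), 2 were lower (12.4%), Pim3 and Hp, and 17 did not pass, and the median was 0.56. Without LL37 replicate 3, 17 of the 30 were higher in LL37 than in LL37 + RAPA and 2 were lower, where 17.4% of tested genes passed in each direction, and 25 rose and 1 fell in LL37 vs control. Ier3 (log2 1.65, SE 0.23, adjusted p = 0.00166), Hif1a (log2 1.62, SE 0.31, adjusted p = 0.00526), Saa1 (log2 3.86, SE 0.85, adjusted p = 0.00868) and the RNA-binding protein gene Arid5a (log2 1.44, SE 0.32, adjusted p = 0.00886), known for stabilising Il6 and Stat3 transcripts, had the smallest p-values.

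In LL37 + RAPA vs control 12 of the 30 rose (5.03% of tested genes rose), Tgm2 fell (9.01% fell), and the median was 0.75, while neither Stat3 nor Socs3 passed. Hp, which encodes the acute phase protein haptoglobin, was at 186 ± 70.9 CPM in control, 483 ± 337 in control + RAPA, 449 ± 163 in LL37 and 1621 ± 306 in LL37 + RAPA (log2 3.13, SE 0.49, adjusted p = 0.00139 against control), and was lower in LL37 than in LL37 + RAPA (log2 -1.85, SE 0.47, adjusted p = 0.0163). Many of these genes answer to other factors as well, NF-kB among them.

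**Figure D5:**
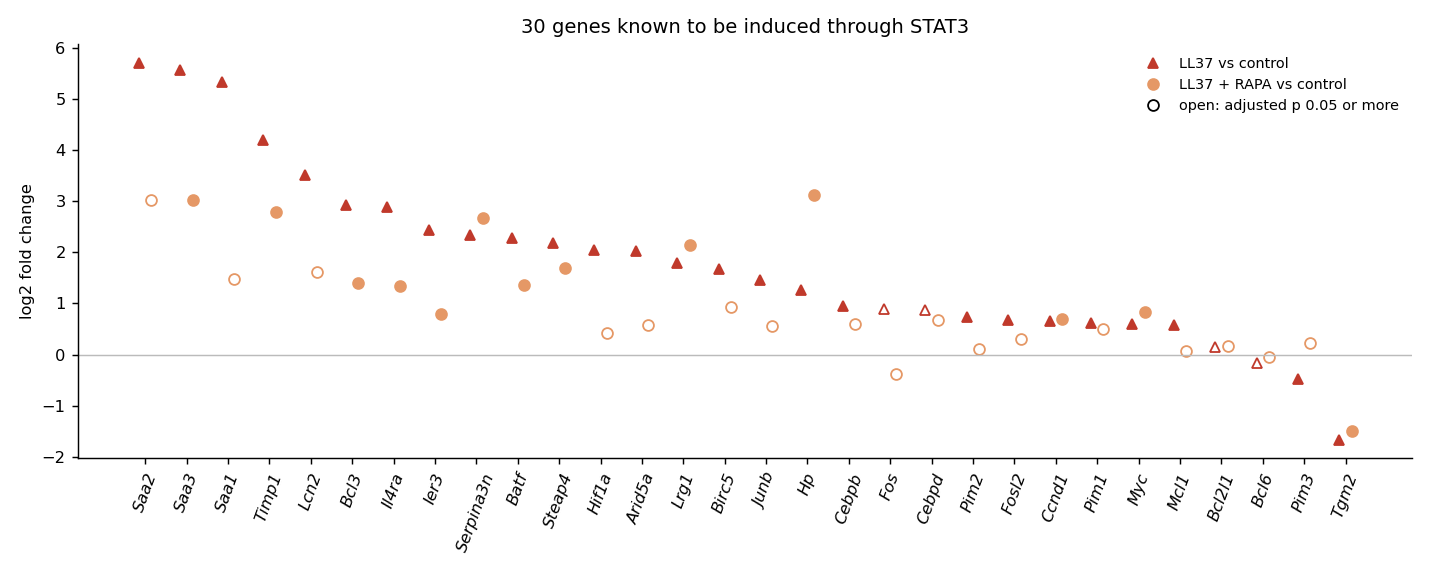
Log2 fold changes of 30 genes known to be induced through STAT3, in LL37 vs control (triangles) and in LL37 + RAPA vs control (circles), ordered by the first; filled symbols had an adjusted p under 0.05 in edgeR's test, and both comparisons share the control libraries. The median is 1.56 for the triangles and 0.75 for the circles, and Hp has its circle at 3.13 above its triangle at 1.27.

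The genes most like Il6, Osm and Socs3 in pattern were those with the highest Pearson correlation of log2 CPM over the 12 libraries, which share groups and depth. They were Cd38 (r = 0.993), Smim3 (r = 0.989) and Il4ra (r = 0.987) for Il6, then Mefv (r = 0.980), Cxcl3 (r = 0.977) and Nfkbie (r = 0.976) for Osm, and Srm (r = 0.982), 1700058P15Rik (r = 0.981) and Arrdc4 (r = 0.978) for Socs3. Of these 9, Il4ra is on the list of STAT3-induced genes, Cxcl3 is a chemokine that attracts neutrophils, and Nfkbie encodes an inhibitor of NF-kB.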

How the data were processed

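RNA was extracted from whole skin with Trizol, libraries were made with the Illumina TruSeq RNA kit and sequenced as paired 100-bp reads. The authors deposited raw read counts per Ensembl gene for each library, with replicates not pooled. The sources differ on the tool: the submitters' processing notes list HISAT2 2.0.5, StringTie 1.3.3b, featureCounts 1.5.0-p3, DESeq2 1.16.1 and mm10, whereas the study's methods name another counter and an earlier DESeq, and neither states the strand setting. Overlapping genes on opposite strands may therefore share reads.

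Here, counts were fitted in R 4.3.3 with edgeR 4.0.16 (TMM, filterByExpr, quasi-likelihood F-test) on all 12 libraries without a replicate block, in 6 comparisons. Depth was 15734559 to 23271784 counts per library, which sets the limit of 3 counts at 0.123 to 0.184 CPM. On simulated counts for LL37 vs control (17715 genes), 21 of 50 genes changed 2-fold and 42 of 50 changed 4-fold passed the adjusted p, with 3 false calls. That simulation changed 200 genes and had no LL37 library apart from the others. In the real comparison 42.6% of genes passed, so these rates are not those of the real test. Alternatives were other scalings, other filters, DESeq2 1.42.0, the compared groups alone, a replicate block and leaving out each library. Counts over the lists without LL37 replicate 3 were added after seeing the data. No pair of libraries was identical. Symbols and positions came from GENCODE M21 (GRCm38), and promoter windows from RefSeq on GRCm38.p6.

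Members and lists were chosen with earlier results of these data known. Named beside the members were the genes of both family lists, the 4 with the smallest p in each of the 2 comparisons of LL37 (with control and with LL37 + RAPA) in each of the other 3 pathway lists, any gene behind a count of 5 or fewer, and the 3 most like genes for Il6, Osm and Socs3. Of the genes this rule names, 2 are not reported here. Hp was also given with its values after these were seen. Marker lists covered keratinocytes, fibroblasts, neutrophils, macrophages, T cells, mast cells, endothelium, adipocytes and muscle.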

Additional observations from a re-analysis of the deposited data

Results flagged for a closer look

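For 2 of the 30 STAT3-induced genes rapamycin had a different effect with LL37 than without it in edgeR's interaction test, which 3.28% of tested genes passed. Saa3 had a log2 interaction of -3.75 (SE 0.90, adjusted p = 0.0454): its mean was 9.08 CPM in control and 21.2 CPM in control + RAPA, but 430 CPM in LL37 and 74.3 CPM in LL37 + RAPA. Ier3 had a log2 interaction of -2.09 (SE 0.33, adjusted p = 0.0198), with means of 29.6 CPM in control, 161 CPM in LL37 and 51.2 CPM in LL37 + RAPA. The interaction also takes in the level of Ier3 in control + RAPA, which is not given here. Leaving out each of the 12 libraries in turn, an alternative chosen after seeing the data, Saa3 passed in 1 of 12 fits, the one without LL37 replicate 3 (log2 -4.22), and adjusted p ran from 0.00121 to 0.122. Ier3 passed in 9 of 12 (log2 -2.34 to -1.95), and not without control replicate 1, control + RAPA replicate 3 or LL37 + RAPA replicate 1 (adjusted p up to 0.0687). Of the 10 members none passed this test with all 12 libraries.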

How the results depend on the processing

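The calls of Il6, Il11, Lif, Osm, Osmr, Stat3 and Socs3 in LL37 vs control passed in each alternative that tested them. Il6, Il11 and Osm were not tested with at least 10 counts in every library, and that filter left 4 DEGs and 5 members past the adjusted p in LL37 vs control, 3 and 3 against LL37 + RAPA, 0 and 0 in LL37 + RAPA vs control + RAPA, and 1 past the adjusted p in LL37 + RAPA vs control. Of all genes tested with that filter, 45.3%, 26.4%, 20.0% and 15.1% passed the adjusted p in that order. The shares were 42.6%, 24.2%, 18.6% and 14.0% in edgeR's test on 17993 genes. With the compared groups alone, DEGs and members past the adjusted p were 2 and 2 in LL37 vs LL37 + RAPA, 1 and 3 in LL37 + RAPA vs control, and 3 and 4 in LL37 + RAPA vs control + RAPA. Of all genes tested in these fits, 14.3%, 17.9% and 24.9% passed the adjusted p. With no filter beyond 1 count DEGs and members past the adjusted p were 1 and 2, 3 and 3, and 2 and 2 in LL37 + RAPA vs control, LL37 + RAPA vs control + RAPA and the interaction, and with DESeq2 1 and 2, 3 and 3, and 3 and 3. The share of all genes past the adjusted p was 7.41%, 9.59% and 3.32% with no filter beyond 1 count. With DESeq2 it was 9.77%, 12.1% and 5.29%. Library size alone gave 1 past the adjusted p in LL37 + RAPA vs control (18.0% of tested genes) and 3 DEGs and 4 past the adjusted p in LL37 + RAPA vs control + RAPA (24.1%). It moved the median of all genes to 0.13, 0.18 and 0.11 in LL37 + RAPA vs control, LL37 + RAPA vs control + RAPA and the interaction. The cause of these shifts was not tested, beyond the genes and samples that a setting leaves out.

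Leaving out 1 library at a time gave 2 to 6 DEGs and 2 to 9 members past the adjusted p in LL37 vs LL37 + RAPA (2 and 3 without LL37 replicate 1, 2 and 2 without LL37 + RAPA replicate 1, 3 and 3 without LL37 + RAPA replicate 3), 0 to 1 and 0 to 2 in LL37 + RAPA vs control (the upper values without LL37 + RAPA replicate 1), 0 to 2 and 0 to 2 in LL37 + RAPA vs control + RAPA, and 0 to 6 and 0 to 7 in the interaction (the upper values without LL37 replicate 3).

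Directions changed for small values alone. Over the fits that left out a library the log2 change ran from -0.44 to 0.028 for Il6ra in LL37 vs control, -0.014 to 0.27 for Il6st in LL37 vs LL37 + RAPA, -0.0087 to 0.13 for Il6ra in LL37 + RAPA vs control and -0.33 to 0.14 for Il6ra in the interaction. In control + RAPA vs control it ran from -0.46 to 0.31 for Il6, -0.37 to 0.067 for Lif, -0.049 to 0.17 for Il6st, -0.063 to 0.0057 for Stat3 and -0.092 to 0.39 for Socs3. With library size alone it was 0.0035 for Lifr in LL37 + RAPA vs control and -0.014 for Il6st in control + RAPA vs control.

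No pairing of the samples by replicate number was seen: of 18 correlations between same-numbered libraries of 2 groups 4 were over 0.1 (range -0.19 to 0.26), and in 6 a library correlated best with its own number. With 3 libraries per group this check cannot exclude pairing. With the number as a replicate block, DEGs and members past the adjusted p were 7 and 7 in LL37 vs control, 4 and 4 for LL37 against LL37 + RAPA (Il11 and Osm no longer passed), 1 and 1 in LL37 + RAPA vs control + RAPA (Il6 in place of Osm) and 0 in the others. Of all tested genes, 41.3%, 21.5% and 17.0% passed the adjusted p in the comparisons named. Depth limits Il6 and Osm most, with 1 to 46 counts in the libraries without LL37.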

Other observations

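The count ratio of Osm to Lif, which lie next to each other, was 0.0400 to 1.07 in control, 0.0625 to 0.333 in control + RAPA, 0.580 to 1.71 in LL37 and 0.402 to 1.44 in LL37 + RAPA, so control and both LL37 groups overlapped. The ratio of Il6ra to Il6st counts was 0.247 and 0.222 in LL37 replicates 1 and 2, below all other libraries, and 0.622 in LL37 replicate 3, within the 0.525 to 0.705 of control + RAPA and above the 0.401 to 0.560 of control.

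Summed CPM of the fibroblast list was 2636 to 5916 in control, 2447 to 2734 in control + RAPA, 4043 to 5514 in LL37 and 4610 to 6722 in LL37 + RAPA. The T cell list was 30.2 to 39.5, 28.6 to 33.2, 31.6 to 39.8 and 24.9 to 28.6 CPM in that order. Mast cell genes summed to 74.6 to 241, 95.0 to 209, 147 to 395 and 138 to 299 CPM (medians 125, 143, 373 and 202), with LL37 replicate 3 lowest in its group. Of the 7 mast cell genes, 1 rose in LL37 vs control (21.0% of tested genes rose) and 6 did not pass, with a median log2 change of 0.03. Against LL37 + RAPA 1 was higher in LL37 (11.8% of tested genes) and 6 did not pass, with a median of -0.57. The mast cell sums thus do not stand for most genes of that list. Endothelial genes summed to 294 to 374, 289 to 415, 245 to 321 and 398 to 409 CPM.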
